A study of Mus musculus with 10 samples.

Results

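The genes that the annotation of the matrix classes as misc_RNA were measured in RNA immunoprecipitation sequencing (RIP-seq) of neural stem cell cultures. They were chosen by that annotation class alone and number 32 of the 15899 genes in the matrix. The cultures were neurospheres, free-floating aggregates grown with EGF and FGF, derived from the subependymal zone of adult mice, for which the labels give an age of 10 weeks. FLAG cultures (Mex3aFLAG/FLAG) carried a FLAG tag knocked into both copies of the endogenous Mex3a gene, and WT cultures of the same background (Mex3a+/+) carried no tag, so that RNA recovered from them with the anti-FLAG antibody measured nonspecific binding. Libraries were made from cells crosslinked with formaldehyde (2 FLAG and 2 WT) or from native cells without crosslinking (3 FLAG and 3 WT). Input RNA was not analysed here, so a value holds both how much of an RNA the cells contained and how much of it was recovered.

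MEX3A is an RNA-binding protein with KH domains, the vertebrate relative of the nematode translational regulator MEX-3. The misc_RNA class gathers short structured RNAs that fit no other class. Its best known members are made by RNA polymerase III and work inside protein complexes: 7SK holds the elongation factor P-TEFb inactive, 7SL is the scaffold of the signal recognition particle, Y RNAs bind the Ro60 and La proteins, and vault RNAs associate with the vault particle. Most other entries are conserved structured stretches that were annotated as genes of their own although they lie inside long noncoding RNAs.

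The 32 genes fell into 3 sets by position. Of the 5 treated as free-standing small RNAs, Rn7sk (7SK), Rny1, Rny3 and Vaultrc5 overlapped no other gene, and Rn7s2 (7SL) overlapped 2 short genes annotated as miRNAs on its own strand (Gm47299 and Gm47305, over 25.7% and 23.3% of its length). A further 7 lay in introns of other genes and 20 overlapped exons of other genes, among them 3 in Xist, 3 in Neat1, 4 in Six3os1, 2 in Tug1, 2 in Sox2ot and 1 each in Malat1, Kcnq1ot1 and the protein-coding gene Pcbp2. Pvt1 held 4, of which 3 touched its exons. The genes were between 68 and 347 nt long, with a median of 162.5 nt, and their GC content ran from 29.1% to 69.8%. By sequence, Rny1 and Rny3 were 71.4% identical, and Gm25265, in an intron of Prex1, matched Rn7sk at 72.3% identity. The best match of Gm22320, Gm25219 and Gm26037 was also Rn7sk, at an identity or an aligned length too low to be placed in its family.

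The sequences of the Y RNAs and the first 100 bases of 7SK are given for the free-standing RNAs, those of the Xist stretches because they had the largest differences between FLAG and WT, and those of 1 stretch each of Malat1, Neat1 and Pcbp2 because groups did not overlap there. They were read 5′ to 3′ on the annotated strand from the GRCm38 reference of RefSeq. Capitals mark matches to the MEX-3 recognition element (MRE), the consensus site of the nematode protein, in either of the study's spellings. The consensus ends in THTA in its methods, the first spelling here, and in THAT in its results, the second. These match different sequences.
Rny1, minus strand, chr6:47788069-47788180: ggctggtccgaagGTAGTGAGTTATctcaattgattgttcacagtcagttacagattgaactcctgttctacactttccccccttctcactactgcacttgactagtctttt
Rny3, plus strand, chr6:47781624-47781725: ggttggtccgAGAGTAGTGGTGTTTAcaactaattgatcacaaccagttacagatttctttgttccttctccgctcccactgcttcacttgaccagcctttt
Rn7sk, minus strand, bases 1 to 100 of chr9:78175303-78175633: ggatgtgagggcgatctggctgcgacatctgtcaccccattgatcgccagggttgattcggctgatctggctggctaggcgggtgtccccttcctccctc
Gm27927, minus strand, exon of Xist, chrX:103469671-103469796: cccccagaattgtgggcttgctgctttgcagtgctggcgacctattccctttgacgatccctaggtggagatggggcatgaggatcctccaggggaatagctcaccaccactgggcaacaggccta
Gm27733, minus strand, exon of Xist, chrX:103461218-103461285: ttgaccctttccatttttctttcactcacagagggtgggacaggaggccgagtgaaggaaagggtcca
Gm27520, plus strand, opposite an exon of Xist, chrX:103480946-103481026: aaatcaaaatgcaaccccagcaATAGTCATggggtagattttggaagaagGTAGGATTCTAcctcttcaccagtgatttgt
Gm27694, minus strand, exon of Malat1, chr19:5799000-5799085: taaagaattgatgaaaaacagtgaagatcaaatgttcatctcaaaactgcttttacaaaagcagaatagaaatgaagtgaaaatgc
Gm27505, minus strand, exon of Neat1, chr19:5844638-5844747: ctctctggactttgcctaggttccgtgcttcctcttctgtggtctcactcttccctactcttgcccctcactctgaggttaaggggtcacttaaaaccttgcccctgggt
Gm27406, plus strand, exon of Pcbp2, chr15:102485908-102486089: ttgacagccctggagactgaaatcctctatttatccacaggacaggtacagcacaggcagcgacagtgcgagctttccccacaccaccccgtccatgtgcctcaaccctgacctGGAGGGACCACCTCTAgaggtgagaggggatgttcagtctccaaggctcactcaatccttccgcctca

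The 3 members on chromosome 18 were not searched. Of the other 29, read on the annotated strand, 7 held the MRE in the first spelling and 6 in the second. Among the 24 of these with promoter windows of equal length to set them against, 5 and 4 held it, and on average 19.53% and 19.11% of 32851 promoter windows of the same lengths did. On the other strand, 7 of the 29 held either spelling. A match is a run of letters and not a measured binding site.

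The values were deposited on a log2 scale after normalization, so depth per library is unknown and no counting error can be given. The lowest values differed between libraries. FLAG native replicate 1 had 329 genes tied at its lowest value of -1.70 and FLAG native replicate 3 had 178 at -1.99, where no other library had more than 3. Among the members, Gm22320 and Gm27804 were at the lowest value in FLAG native replicate 1, and Gm26037, Gm27389, Gm27369 and Gm27804 in FLAG native replicate 3. In the WT libraries, Gm27927 and Gm27733 were at the lowest value of crosslinked replicate 1 (-5.27) and, with Gm27610, of native replicate 3 (-4.86), and Gm27801 at that of native replicate 1 (-5.67). The study's methods call the replicates biological replicates of the cultures, and nothing in the labels says whether they came from separate animals, so p-values measure the spread between these libraries. Markers of neural stem and progenitor cells were present in all libraries, with all 8 in the matrix and a summed log2 value of 10.95 to 11.45. They moved in both directions in FLAG over WT over all libraries, where 0 were called by limma and the median log2 fold change was 0.65. With an unadjusted p below 0.05, Sox2, Fabp7 and Vim were among those with positive values (0.98, 0.79 and 1.01), and Egfr and Slc1a3 had negative ones of -0.33 and -0.44, short of the fold of 0.58. Neuron markers (3 of 4 in the matrix, without Dcx) had summed log2 values of 3.55 to 4.41 in the FLAG and 4.88 to 4.91 in the WT crosslinked libraries, and of 3.59 to 4.09 in the FLAG and 4.84 to 5.31 in the WT native libraries. Rbfox3, a nuclear protein of mature neurons, was the 1 marker called in FLAG over WT, at a log2 fold change of -1.31 ± 0.17 (SE, limma adjusted p = 0.0127). Endothelial markers (2 of 4 in the matrix, without Cldn5 and Cdh5) had summed log2 values of 0.21 to 0.52 in the FLAG and 1.157 to 1.34 in the WT crosslinked libraries, without overlap, and of 0.33 to 1.63 in the FLAG and 1.17 to 1.36 in the WT native libraries, with Pecam1 at -0.58 (unadjusted p = 0.0273, limma adjusted p = 0.196) over all libraries. The part of these differences in the members' values was not tested. Mex3a itself had log2 values of 3.92 and 4.16 in the FLAG and 2.75 and 3.03 in the WT crosslinked libraries, and of 5.95, 4.03 and 6.10 in the FLAG and 3.33, 3.52 and 2.89 in the WT native libraries.

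The libraries also stood apart in sex-linked genes, for which the labels give no information. Xist, the RNA that coats the inactive X chromosome, had log2 values of 10.59 and 10.86 in the FLAG and -0.71 and 10.71 in the WT crosslinked libraries, and of 9.52, 8.78 and 8.56 in the FLAG and 3.13, 7.63 and 0.68 in the WT native libraries. Uty, a Y-linked gene, had -1.23 and -3.26 in the FLAG and 7.08 and -2.12 in the WT crosslinked libraries, and 3.06, 0.98 and 1.87 in the FLAG and 7.26, 6.12 and 6.98 in the WT native libraries. WT crosslinked replicate 1 and WT native replicates 1 and 3 thus combined low Xist with high Uty, and WT native replicate 2 had both.

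**Figure D1:**
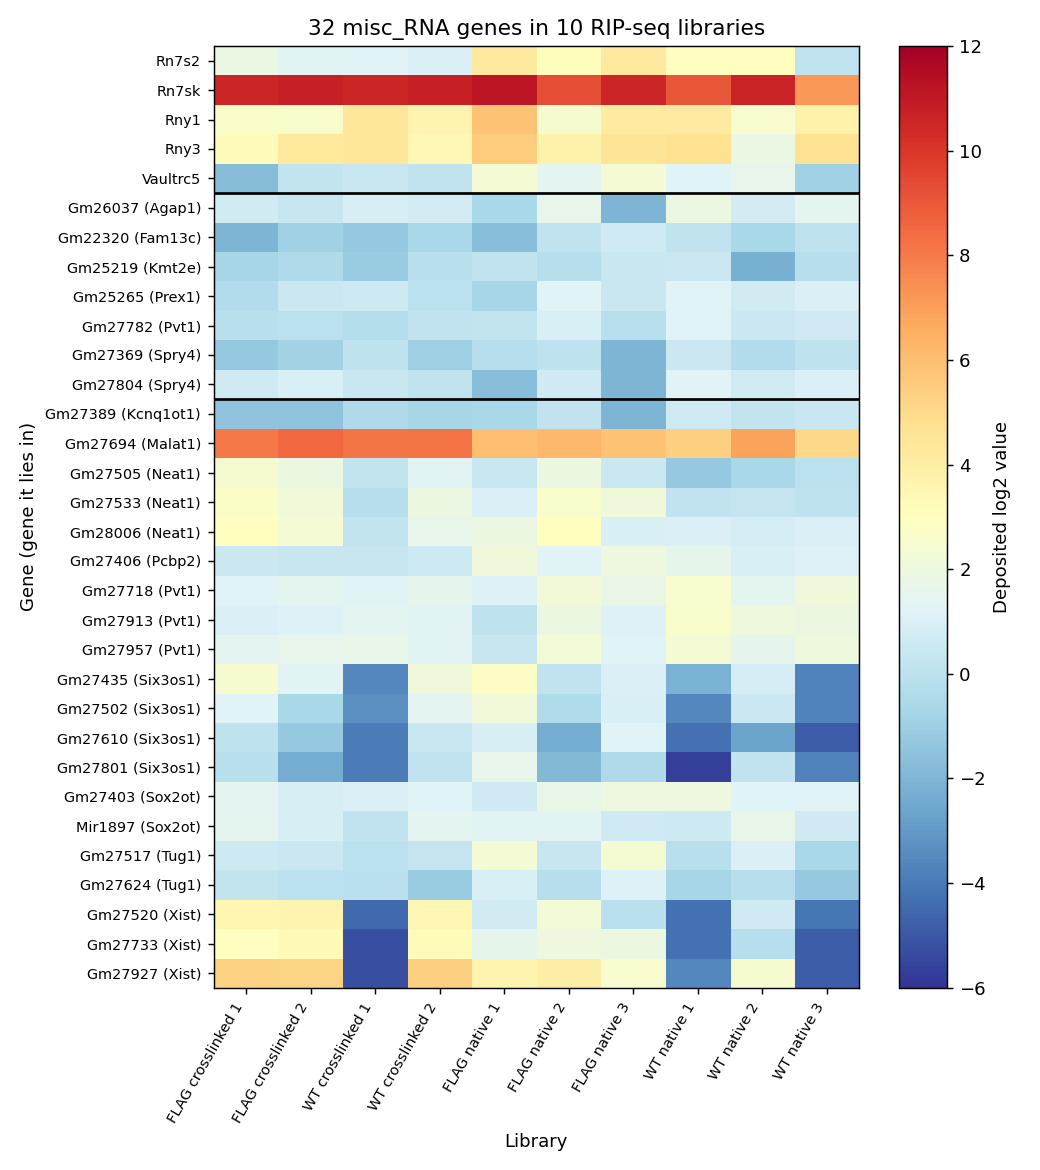
Deposited log2 value (colour scale) of each of the 32 misc_RNA genes (rows, with the gene each lies in) in the 10 libraries (columns). Lines divide the free-standing RNAs, the genes in introns and those over exons of other genes. Rn7sk and Gm27694 are highest throughout, and the Xist and Six3os1 stretches are low in WT crosslinked replicate 1 and WT native replicates 1 and 3.

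Levels were compared between genes per length, as the mean log2 value over the 10 libraries scaled to 1 kb. Rn7sk stood highest at 11.65, followed by the Malat1 stretch Gm27694 at 10.36, Rny3 at 7.33 and Rny1 at 6.79. The other 28 members lay between 0.54, for Gm27801 in Six3os1, and 5.23, for Gm27718 in Pvt1. The order below Gm27694 was not that of every group, since in the FLAG crosslinked libraries the Xist stretches Gm27927 and Gm27520 had means of 8.24 and 7.19 on this scale, above Rny3 at 7.06 and Rny1 at 5.82. On this scale Rn7s2 reached 4.07 and Vaultrc5 3.52. For Rn7s2 all of the 75-nt windows recur elsewhere in the genome, and for Rn7sk 65.0% do, so reads from their copies cannot be told apart from their own. None of the windows of the other members recurred, and 3 members are shorter than 75 nt.

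The first question was whether the tag changed recovery. No member was called in FLAG over WT, where a call required, in limma with Benjamini-Hochberg adjustment over all genes, a log2 fold change beyond 0.58 at an adjusted p below 0.05. Of all genes, 0.107% were called in the native libraries, 0% in the crosslinked libraries and 0.497% in all libraries together. Mex3a and Sox2, whose RNAs the study lists as bound by MEX3A, were not called in these comparisons either. Over all libraries they had 1.73 ± 0.37 and 0.98 ± 0.23 (SE, limma adjusted p = 0.0789 and 0.0865). An absent call is thus no measure of absent binding. With the same fold and an unadjusted p below 0.05, 11 of the 32 members were higher and 2 lower over all libraries, against 7.24% and 5.28% of all genes. The same counts were 11 and 2 in the native libraries, against 7.77% and 7.06% of all genes, and 2 and 1 in the crosslinked libraries, against 2.78% and 0.987%. The median log2 fold change of the members was 0.82 in the native, 0.08 in the crosslinked and 0.43 in all libraries, where that of all genes was -0.04, -0.02 and -0.03. Of the 11 higher over all libraries, 3 lay in Xist, 3 in Neat1, 2 in Six3os1 and 2 in Tug1, and the other was Rn7s2, so they stand for few separate transcripts.

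Among the free-standing RNAs, Rn7sk had log2 values of 10.58 and 10.75 in the FLAG and 10.56 and 10.75 in the WT crosslinked libraries, and of 11.15, 9.30 and 10.58 in the FLAG and 9.04, 10.65 and 7.19 in the WT native libraries. The groups overlapped in both protocols, and the lowest value was that of WT native replicate 3. Its log2 fold change in FLAG over WT was 0.01 ± 0.14 (SE) with crosslinking and 1.38 ± 0.78 in native conditions, with limma adjusted p-values of 0.999 and 0.366.

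Rn7s2 had log2 values of 1.81 and 1.34 in the FLAG and 1.27 and 1.09 in the WT crosslinked libraries, and of 4.25, 3.09 and 4.26 in the FLAG and 3.02, 3.05 and 0.14 in the WT native libraries. FLAG lay above WT without overlap in both protocols, as it did for 3 members (Gm27533, Gm27505 and Rn7s2) and 4.84% of all genes. The log2 fold change over all libraries was 1.23 ± 0.55 (SE), with a limma adjusted p of 0.236. WT was above FLAG without overlap in both protocols for Gm27389 and Gm27913, as for 4.47% of all genes.

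Rny1 and Rny3 lie close to each other on chromosome 6, and the difference between them was not tested. Rny1 had log2 values of 2.71 and 2.62 in the FLAG and 4.38 and 3.62 in the WT crosslinked libraries, without overlap, and a log2 fold change of -1.33 ± 0.28 (SE) there (unadjusted p = 0.00896, limma adjusted p = 0.484). In the native libraries and over all libraries the log2 fold changes were 0.65 ± 0.76 and -0.14 ± 0.61 (SE, limma adjusted p = 0.634 and 0.898). Over all libraries array weights, which called 13.0% of all genes, called it at -1.565 (adjusted p = 0.000785), where a pseudocount of 8 gave 0.007. Those weights were 10.19 for FLAG crosslinked replicate 2, 9.02 for WT crosslinked replicate 1 and at most 1.36 for any other library. In the native libraries Rny1 had 5.84, 2.49 and 4.14 in FLAG and 4.16, 2.57 and 3.79 in WT, which overlapped. Rny3 had 3.21 and 4.33 in the FLAG and 4.40 and 3.41 in the WT crosslinked libraries, and 5.48, 3.75 and 4.55 in the FLAG and 4.72, 1.81 and 4.66 in the WT native libraries, and overlapped in both. The mRNA of Trove2, which encodes the Ro60 protein that binds Y RNAs, had the largest change in FLAG over WT among the partner proteins, at a log2 fold change of 1.23 ± 0.29 (SE, limma adjusted p = 0.0865). The next was Rpp38, a protein of RNase P, at 0.66 ± 0.43 (adjusted p = 0.365).

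Vaultrc5 had log2 values of -1.74 and 0.25 in the FLAG and 0.46 and 0.17 in the WT crosslinked libraries, and of 2.31, 1.44 and 2.30 in the FLAG and 1.23, 1.61 and -0.90 in the WT native libraries. It was thus lowest in FLAG crosslinked replicate 1 and highest in FLAG native libraries, and FLAG and WT overlapped in both protocols. Of the 49 partner protein mRNAs in the matrix (of 56 listed, for 7SK, the signal recognition particle, Ro and La, the vault, RNase P and MRP, and RNA polymerase III), 0 were called in FLAG over WT in any of the 3 comparisons, and 2, 3 and 2 were higher with an unadjusted p below 0.05 in the native, crosslinked and all libraries.

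**Figure D2:**
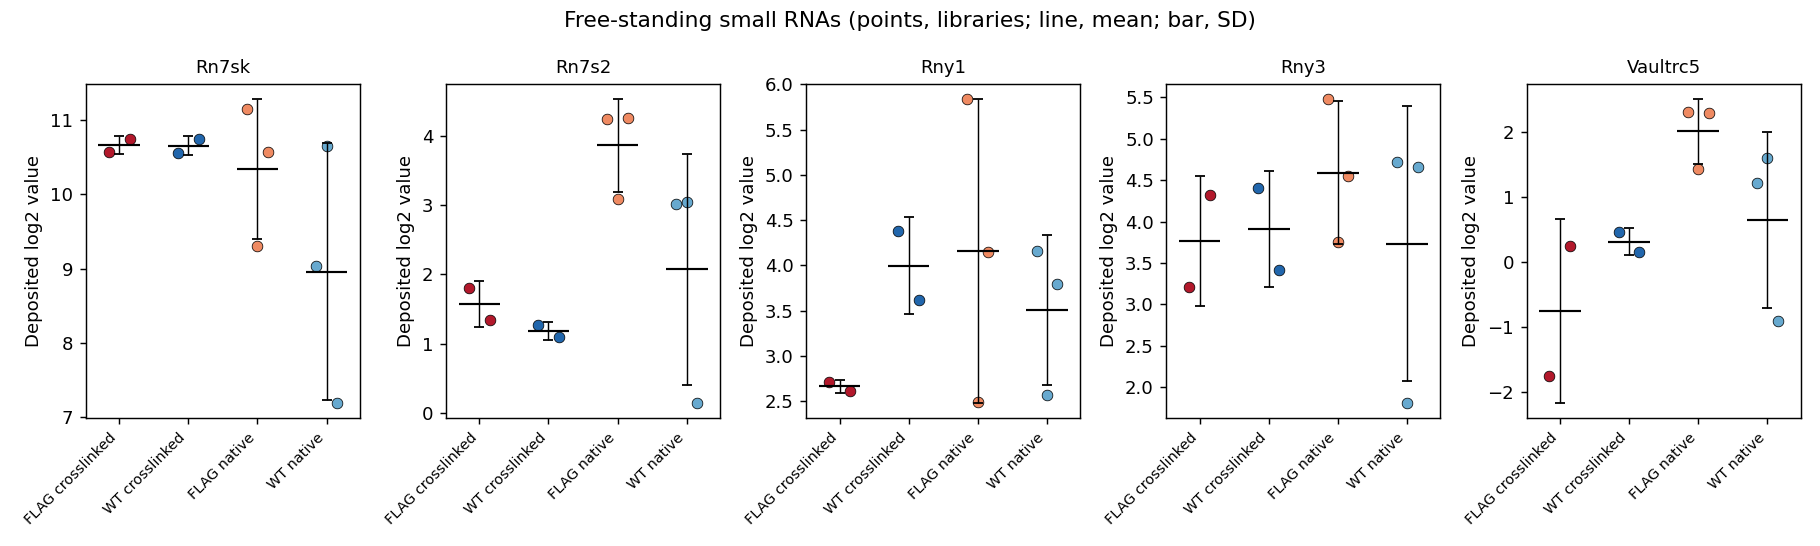
Deposited log2 value (vertical axis) of the 5 free-standing RNAs by group (horizontal axis), with points for libraries, lines for means and bars for the SD. Rn7s2 is higher in the native FLAG libraries, from 3.09 to 4.26, than in any crosslinked library, and the WT native libraries spread most for Rn7sk.

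The largest differences between FLAG and WT lay in Xist and Six3os1, where 3 WT libraries were low. Gm27927 had log2 values of 5.30 and 5.21 in the FLAG and -5.27 and 5.35 in the WT crosslinked libraries, and of 3.61, 4.00 and 2.57 in the FLAG and -3.55, 2.48 and -4.86 in the WT native libraries. The low values were those of WT crosslinked replicate 1 and WT native replicates 1 and 3, the libraries with low Xist and high Uty, and in 2 of them they were the lowest value of the library. The log2 fold change over all libraries was 5.30 ± 1.83 (SE, limma adjusted p = 0.161), and that of Xist itself was 5.37 ± 1.85 (adjusted p = 0.161). Against WT crosslinked replicate 2 alone, the FLAG crosslinked mean of Gm27927 differed by -0.10, and against WT native replicate 2 alone, the FLAG native mean was higher by 0.91. For Gm27733 and Gm27520 the same differences were -0.017 and 0.11 with crosslinking and 2.00 and 0.34 in native libraries.

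Gm27733 had -5.27 and 3.17 in the WT crosslinked libraries against 2.96 and 3.34 in FLAG, and -4.26, -0.19 and -4.86 in the WT native libraries against 1.53, 1.96 and 1.94 in FLAG. Gm27520, annotated on the strand opposite to Xist, had -4.51 and 3.45 against 3.51 and 3.63 in the crosslinked libraries, and -4.26, 0.64 and -4.16 against 0.71, 2.29 and -0.07 in the native libraries. Their log2 fold changes over all libraries were 4.63 ± 1.37 and 3.78 ± 1.39 (SE, limma adjusted p = 0.129 and 0.18). Without WT crosslinked replicate 2, Gm27927 and Gm27733 were called, at 6.95 (adjusted p = 0.0387) and 5.99 (adjusted p = 0.0184). Array weights, which called 13.0% of all genes, called Gm27927 at 9.31, Gm27733 at 7.64 and Gm27520 at 7.24 (adjusted p = 0.000402, 0.0003 and 0.000352). Most weight lay on FLAG crosslinked replicate 2 (10.19) and WT crosslinked replicate 1 (9.02), a library with low Xist and high Uty. The weighted folds thus rest mainly on those libraries. At the other end, a pseudocount of 8 left 1.08, 0.50 and 0.44, not called.

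Six3os1 is a long noncoding RNA transcribed divergently from the gene of the forebrain homeobox factor Six3. Its 4 stretches, all annotated on the opposite strand, were lowest in the same 3 libraries. Gm27610 was also low in WT native replicate 2 and FLAG native replicate 2. Gm27610 and Gm27502 lie in introns of Six3 as well, which had a log2 fold change of 2.58 ± 0.825 (SE, limma adjusted p = 0.141). Gm27435 had log2 values of 2.48 and 1.35 in the FLAG and -3.55 and 2.13 in the WT crosslinked libraries, and of 2.79, 0.15 and 1.07 in the FLAG and -2.19, 0.86 and -3.75 in the WT native libraries. Gm27610 had 0.08 and -1.25 against -3.93 and 0.42, and 0.92, -2.36 and 1.22 against -4.26, -2.69 and -4.86. The log2 fold changes were 2.87 ± 1.11 and 2.79 ± 1.04 (SE, limma adjusted p = 0.194 and 0.183), and 2.79 for Six3os1 as a whole. Array weights called both, at 4.33 and 2.53 (adjusted p = 0.00129 and 0.00661). Gm27502 and Gm27801 had 2.41 and 1.95. Against WT native replicate 2 alone the FLAG native means of the 4 stretches differed by -0.41 (Gm27801) to 2.62 (Gm27610), and against WT crosslinked replicate 2 alone the FLAG crosslinked means by -1.45 (Gm27801) to -0.21 (Gm27435). The part of the sex-linked difference between libraries in these values was not tested.

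**Figure D3:**
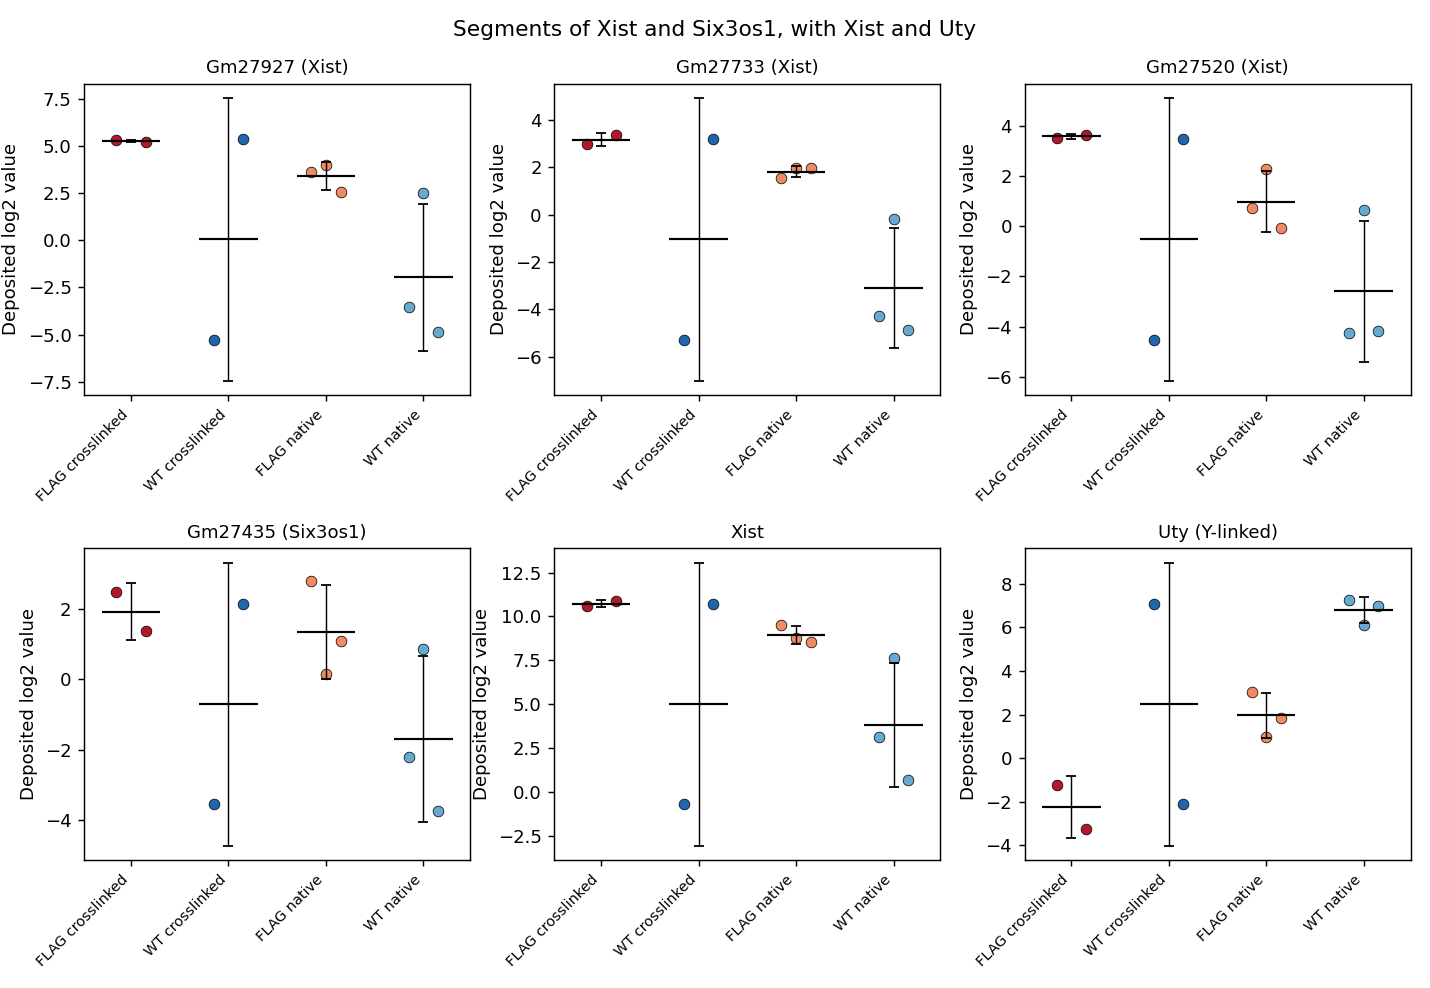
Deposited log2 value (vertical axis) of 3 stretches in Xist and 1 in Six3os1, of Xist and of the Y-linked gene Uty, by group (points, libraries; line, mean; bar, SD). In WT crosslinked replicate 1 and WT native replicates 1 and 3 the stretches and Xist are low while Uty is high, at 7.08, 7.26 and 6.98.

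The Neat1 stretches had positive values too, but none of them was called in the unweighted fit. Neat1 is the architectural RNA of paraspeckles. Gm27505 had log2 values of 2.46 and 1.94 in the FLAG and 0.23 and 1.32 in the WT crosslinked libraries, and of 0.46, 1.90 and 0.51 in the FLAG and -1.26, -0.61 and 0.01 in the WT native libraries. FLAG lay above WT without overlap in both protocols, also for Gm27533, with 2.74 and 2.22 against -0.19 and 1.92, and 1.04, 2.63 and 2.14 against 0.18, 0.28 and 0.06. Over all libraries the log2 fold changes were 1.51 ± 0.37 for Gm27505, 1.70 ± 0.40 for Gm27533 and 1.25 ± 0.39 for Gm28006 (SE, limma adjusted p = 0.0933, 0.0885 and 0.139). With array weights Gm27505 was called, at 1.795 (adjusted p = 0.000342). The whole Neat1 gene was called, at 1.63 ± 0.28 (SE, limma adjusted p = 0.0374).

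The stretches of Tug1, another long noncoding RNA, had log2 fold changes of 1.12 and 1.11, and Tug1 as a whole had 0.92. Members with a negative value in FLAG over WT were in part at the lowest value of a library. The 5 lowest were Gm26037 at -1.15, Gm27389 at -1.10, Gm27804 at -0.998, Gm27913 at -0.81 and Gm27369 at -0.72, with limma adjusted p-values between 0.179 and 0.344. Of these, Gm27913, in Pvt1, was at no such value and had 1.04 and 1.14 in the FLAG and 1.45 and 1.35 in the WT crosslinked libraries, and 0.07, 1.91 and 1.157 in the FLAG and 2.58, 2.04 and 1.92 in the WT native libraries. The other 4 had a native FLAG library at its lowest value. Gm26037, in an intron, had 0.70 and 0.39 in the FLAG and 0.91 and 0.79 in the WT crosslinked libraries, and -0.59, 1.645 and -1.99 in the FLAG and 1.89, 0.77 and 1.52 in the WT native libraries. Gm27389 had -1.46 and -1.49 against -0.48 and -0.67 with crosslinking, and -0.59, 0.17 and -1.99 against 0.62, 0.22 and 0.42 in native libraries, so that WT lay above FLAG in both. Gm27369 had -1.26 and -0.86 against 0.08 and -0.99, which overlapped, and -0.18, 0.06 and -1.99 against 0.53, -0.31 and 0.06. Gm27804, next to Gm27369 in Spry4, had 0.63 and 0.99 against 0.46 and 0.18, and -1.70, 0.67 and -1.99 against 1.18, 0.71 and 1.05, so that FLAG lay above WT with crosslinking and below it in native libraries. Gm22320 had -2.04 and -0.87 against -1.25 and -0.61, and -1.70, 0.17 and 0.63 against 0.18, -0.61 and 0.06, and overlapped in both protocols.

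Mir1897, a 272-nt gene in Sox2ot that shares its name with a shorter miRNA gene, had 1.47 and 0.91 in the FLAG and 0.18 and 1.40 in the WT crosslinked libraries, and 1.37, 1.38 and 0.63 in the FLAG and 0.59, 1.70 and 0.62 in the WT native libraries. The groups overlapped in both protocols, and FLAG over WT was 0.25 ± 0.32 (SE). For no member did the FLAG over WT fold change pass the test for a protocol difference (limma adjusted p at least 0.97), and 1 member had an unadjusted p below 0.05, Gm27804, against 0.415% of all genes.

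The second question was how crosslinking changed recovery. Over all libraries 2 of the 32 members were called, against 4.11% of all genes, and they moved in opposite directions. Gm27694, in Malat1, the abundant nuclear speckle RNA, rose, and Gm27406, in an exon of Pcbp2, fell. At an unadjusted p-value under 0.05, 2 members were higher and 4 lower, against 4.58% and 7.06% of all genes. The median log2 fold change of the members was -0.16, and that of all genes 0.06. Of the 17 cell type markers in the matrix, 1 was called, Fabp7, a fatty acid binding protein of neural progenitors, at -1.164 ± 0.27 (SE, limma adjusted p = 0.0377), and its part in the members' values was not tested.

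Gm27694 had log2 values of 8.02 and 8.52 in the FLAG and 8.14 and 8.17 in the WT crosslinked libraries, and of 5.99, 6.17 and 5.85 in the FLAG and 5.34, 6.88 and 5.07 in the WT native libraries. All crosslinked libraries lay above all native ones. The log2 fold change of crosslinked over native was 2.33 ± 0.30 (SE, limma adjusted p = 0.00223), and 2.27 in FLAG (adjusted p = 0.0393) and 2.39 in WT (adjusted p = 0.212). The call in FLAG alone was lost with a pseudocount of 8, a minimum mean of 10 and 1 fit of 4 groups (adjusted p = 0.0581, 0.055 and 0.0643), and when any of its libraries but FLAG native replicate 2 was left out (adjusted p = 0.0625 to 0.83, at 2.02 to 2.51). Without a crosslinked library that fit holds 1 crosslinked library, which is assumed to vary like the native ones. Malat1 as a whole rose by 1.96 ± 0.26 (SE, limma adjusted p = 0.0028). With the replicate number as a block, in a paired fit of crosslinked and native libraries, Gm27694 kept its call over all libraries at 2.12 (adjusted p = 0.0114).

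Gm27406 had log2 values of 0.53 and 0.35 in the FLAG and 0.34 and 0.60 in the WT crosslinked libraries, and of 2.095, 1.25 and 2.01 in the FLAG and 1.59, 1.01 and 1.11 in the WT native libraries. Every crosslinked library was below every native one, with a log2 fold change of -1.06 ± 0.24 (SE, limma adjusted p = 0.0359). Pcbp2 as a whole had -0.04 ± 0.12. The call was lost with a pseudocount of 8, at -0.22 (adjusted p = 0.0641), in the paired fit, at -1.03 (adjusted p = 0.0876), and when any of 7 libraries was left out, the exceptions being FLAG native replicate 2 and WT native replicates 2 and 3.

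Crosslinked lay above native without overlap in both genotypes for 2 members, Gm27694 and Gm27505, against 8.3% of all genes, and below for 1, Gm27406, against 6.92%. Gm27505 differed by 1.32 ± 0.38 (SE, limma adjusted p = 0.0795) where Neat1 as a whole had 0.30, and it was called without FLAG native replicate 2, at 1.54 (adjusted p = 0.0263). Within genotypes, 1 member was called in the FLAG libraries (Gm27694, against 0.0692% of all genes) and 0 in the WT libraries (limma, against 0.0377%). At an unadjusted p-value under 0.05, 5 were higher and 3 lower in FLAG, against 2.85% and 5.89%, and 2 were higher and 3 lower in WT, against 3.11% and 4.24%.

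Rn7s2 and Vaultrc5 were not called in crosslinked over native and had log2 fold changes of -1.59 ± 0.57 and -1.55 ± 0.64 (SE, limma adjusted p = 0.142 and 0.205). Without WT native replicate 3 both were called, Rn7s2 at -2.09 (adjusted p = 0.00375) and Vaultrc5 at -2.01 (adjusted p = 0.0485). In the paired fit over all libraries, which called 2.8% of all genes, Rn7s2 was called, at -1.97 ± 0.18 (adjusted p = 0.00804). In the FLAG libraries alone the paired fit called 4 members higher (Gm27694, Gm27520, Gm27927 and Gm27733) and 3 lower (Rn7s2, Vaultrc5 and Rny1), against 2.73% of all genes (0.352% higher and 2.38% lower). In the WT libraries alone it called Rn7s2 lower, at -1.85 (adjusted p = 0.0477), against 0.893% of all genes. Each of these within-genotype fits rests on 2 pairs and on a pairing taken from the data, and leaves a gene little spread of its own. In the FLAG libraries Rny1 had -1.50 ± 0.40 in the paired fit. The unpaired fit gave it -1.49 ± 0.86 (SE, limma adjusted p = 0.636). Rn7sk had 1.01 ± 0.60 in the unpaired fit (adjusted p = 0.382) and 0.63 in the paired fit (adjusted p = 0.377), and array weights, which called 12.8% of all genes, called it at 1.63 (adjusted p = 0.0102). The mRNA of Srp14, which encodes a protein that binds 7SL, was the 1 partner mRNA called over all libraries, at -1.29 ± 0.18 (SE, limma adjusted p = 0.00288).

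**Figure D4:**
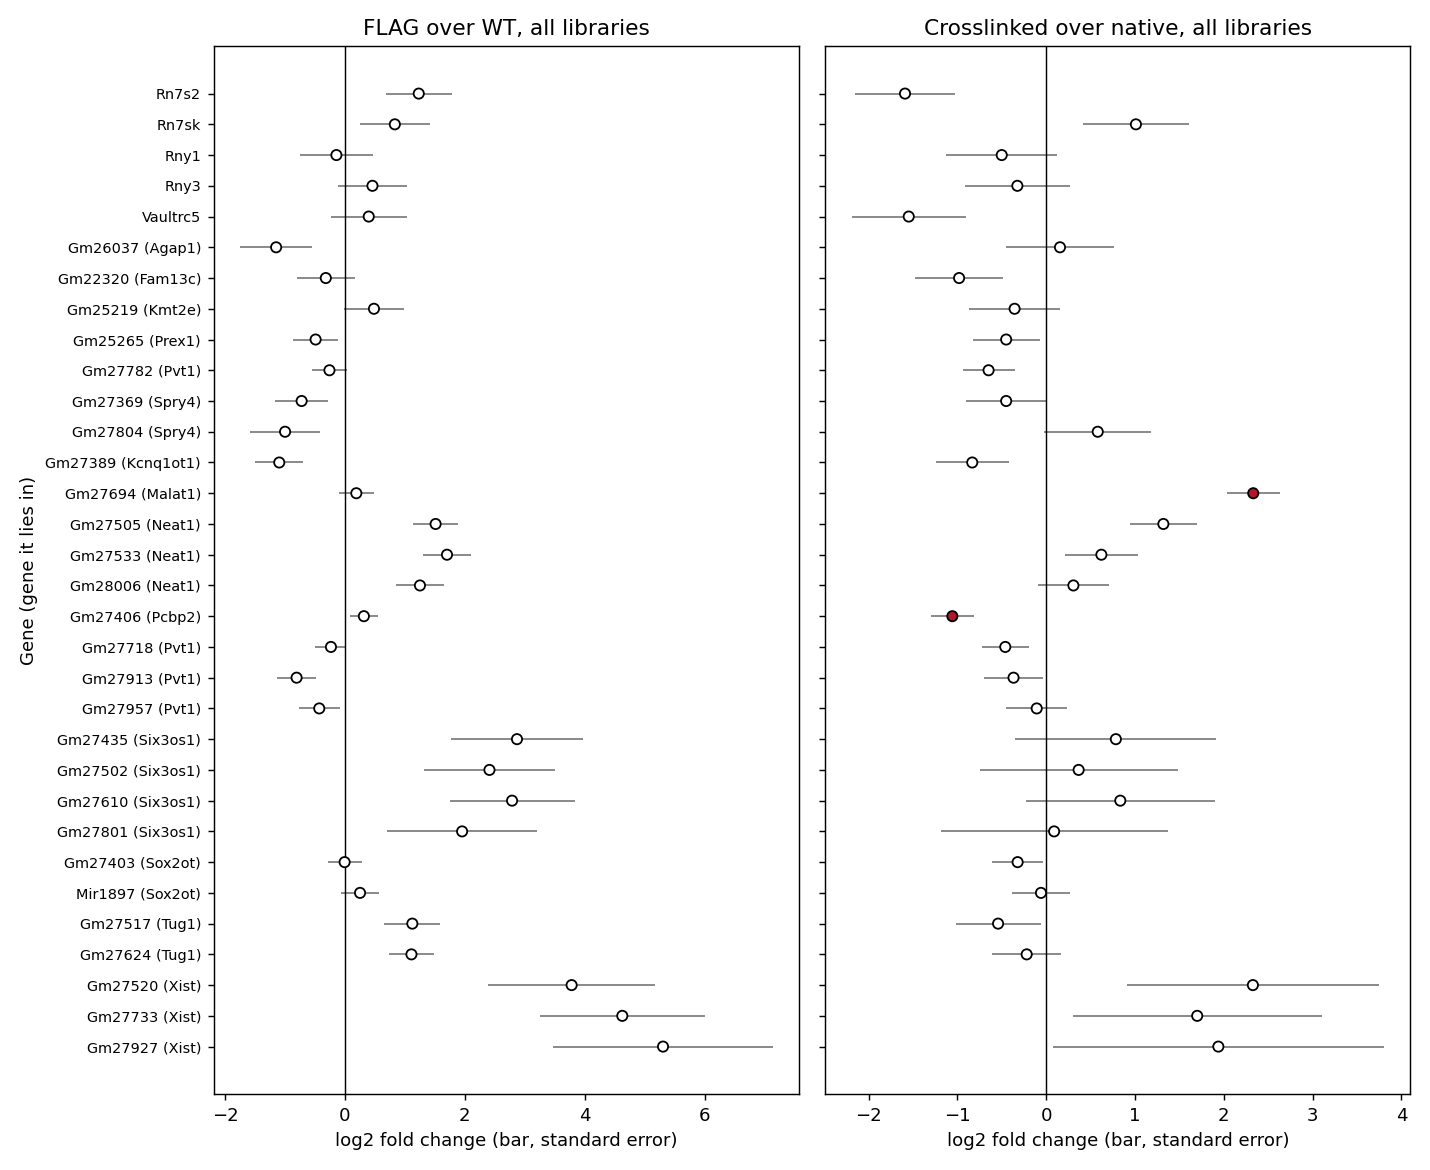
Log2 fold change with its standard error (horizontal axis) of the 32 genes (vertical axis) in FLAG over WT and in crosslinked over native, over all libraries. Filled points are called. No gene is called in FLAG over WT, and Gm27694 and Gm27406 are called in crosslinked over native.

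Other short RNA classes gave a measure for these values. In crosslinked over native, the median log2 fold change was 0.89 for the 131 snoRNA genes, 0.53 for the 20 snRNA genes, -1.94 for the 17 scaRNA genes and -1.38 for the 48 miRNA genes, where the misc_RNA genes had -0.16. Calls were 22 higher and 6 lower among snoRNA genes, 1 and 0 among snRNA genes, 1 and 2 among scaRNA genes and 2 and 13 among miRNA genes, against 1.17% higher and 2.94% lower of all genes. In FLAG over WT 0 genes of these 4 classes were called by limma. With an unadjusted p below 0.05 over all libraries, 0 snoRNA genes were higher and 14 lower, and 8 miRNA genes higher and 0 lower. Of all genes, 7.24% were higher and 5.28% lower. The class medians ran from -0.07 to 0.65 over all libraries, but their signs differed between protocols. For snoRNA, snRNA, scaRNA and miRNA genes they were 0.42, 0.31, 1.375 and 1.04 in native libraries. In crosslinked libraries they were -0.845, -0.68, -0.36 and -0.14.

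Members followed the genes they lie in to differing extents. Over the 10 libraries, which share their normalization, Pearson's r between a stretch wholly within exons and its gene had a median of 0.89 on the same strand (13 pairs) and 0.93 on the opposite strand (6 pairs), and 0.33 for genes in introns (7 pairs). The opposite-strand pairs include the 4 of Six3os1 and that of Gm27520 with Xist. Tsix, annotated opposite to Xist, had 10.62 and 10.90 in the FLAG crosslinked libraries where Xist had 10.59 and 10.86, so reads of overlapping genes could not be assigned to a strand from these values. The lowest r on the same strand was that of Gm27403 with Sox2ot, at -0.10. The intronic pairs ran from -0.46, for Gm27804 with Spry4, to 0.94, for Gm25265 with Prex1.

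**Figure D5:**
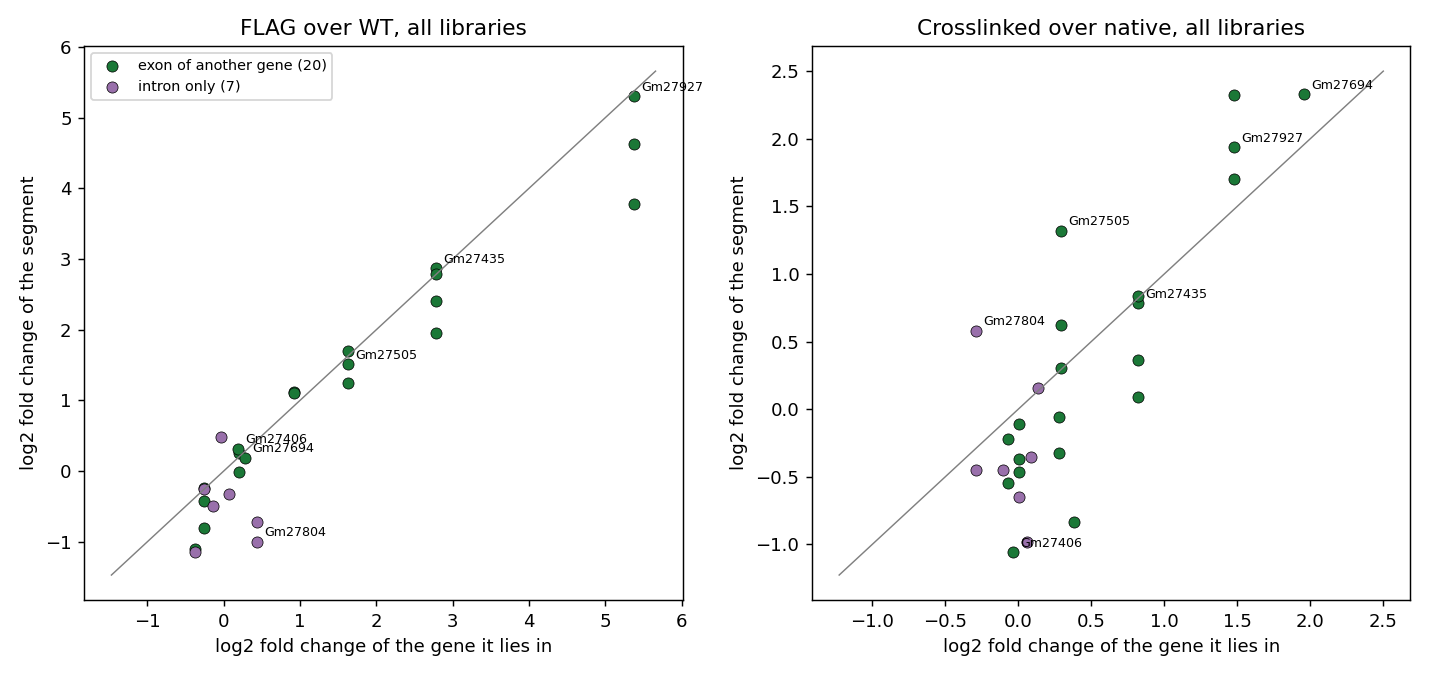
Log2 fold change of each gene (vertical axis) against that of the gene it lies in (horizontal axis), for FLAG over WT and crosslinked over native, over all libraries. The line marks equal values. Gm27694 and Gm27927 lie near their genes, whereas Gm27406 fell by 1.06 where Pcbp2 had -0.04.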

How the data were processed

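RNA recovered with an anti-FLAG antibody was sequenced as single reads of 75 nt after random priming without poly-A selection. Per the study's methods and its processing notes, the authors trimmed reads with cutadapt and Trimmomatic, mapped them to GRCm38 with HISAT2, counted them with featureCounts and normalized them (the methods mention DESeq2 here). The deposited table gives log2 values of 15899 genes, which entered the tests unchanged and without a count model. Depth is unknown.

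FLAG was compared with WT and crosslinked with native in limma 3.58.1 (R 4.3.3; lmFit, eBayes with trend), with the other factor as covariate over all libraries and a 4-group fit for the difference between protocols. P-values were adjusted over all genes (Benjamini-Hochberg). The steps were tested on simulated data. The members and all lists were chosen with earlier results of these data known. The 20 members with values in each library are those with a name other than a predicted-gene symbol, those called, and the 5 largest changes in each direction in each of the 2 comparisons over all libraries. Of the partner mRNAs, the called and the 2 with the largest change in FLAG over WT are named. Gm27533 and the other genes named were chosen after their values were seen.

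Overlaps came from GENCODE M21, a later release than the authors counted with, in which all 32 members had the coordinates of the matrix. The strand setting of the counting is not given in the sources used here. Families came from blastn 2.17.0 (at least 70% identity over 60% of the shorter sequence). Python 3.11.15, numpy 2.4.6, pandas 2.3.3 and matplotlib 3.10.9 were used. Same-numbered crosslinked and native libraries of a genotype deviated together (r = 0.178 and 0.154 in FLAG, 0.3 and 0.388 in WT). The number was therefore taken to pair them, from the data and not the labels. The support is weak, since WT crosslinked replicate 1 had 0.232 with WT native replicate 3. With 2 crosslinked libraries per genotype, their deviations are also mirror images. Uty had -2.12 in WT crosslinked replicate 2 and 6.12 in WT native replicate 2, so the pairing remains an assumption. Same-numbered FLAG and WT libraries did not deviate together (r from -0.43 to -0.149), and different-numbered ones reached 0.401. The alternatives were pseudocounts of 1 and 8, a minimum mean of 10 on the linear scale, quantile and trimmed-mean scaling, robust moderation, array weights, 1 fit of 4 groups, the replicate block and each library left out. A common floor of -1.7 and a crossed pairing were chosen after seeing the data. Sequences are printed for 9 members. Those of the 3 members on chromosome 18 were not used, and that of 1 member is not reported here.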

Additional observations from a re-analysis of the deposited data

Results flagged for a closer look

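Gm27804, in an intron of Spry4, was lower in every FLAG than in every WT native library and higher in every FLAG than in every WT crosslinked library. The difference of its log2 fold changes, crosslinked minus native, was 2.48 ± 0.99 (SE, limma unadjusted p = 0.0316, adjusted p = 0.97), so it did not pass the adjustment. Its value was the lowest of the library, tied with other genes, in FLAG native replicates 1 and 3.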

How the results depend on the processing

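Gm27694 stayed called in crosslinked over native over all libraries under every alternative, between 2.12 and 2.58. Of 303 recomputed counts and medians of the members, 258 stayed within the spread or within 1.5 times. Array weights called 22.5% of all genes in FLAG over WT in native libraries, 13.0% in all libraries, and in crosslinked over native 1.27% in WT, 6.49% in FLAG and 12.8% in all libraries. Of the members they called 9 higher and 4 lower in FLAG over WT in native libraries (median 0.49), 10 and 3 in all libraries, 1 higher in crosslinked over native in WT, 4 higher and 2 lower in FLAG and 2 and 7 in all libraries. Besides those named in the results, these were Mir1897 (0.675), Gm27389 (-0.93) and Gm27369 (-0.83) in FLAG over WT, and Gm27389 (-1.13), Gm27913 (-0.72) and Gm22320 (-1.161) in crosslinked over native, in all libraries and among the 20 members given by library. Over all libraries the weights were 10.19 for FLAG crosslinked replicate 2, 9.02 for WT crosslinked replicate 1 and at most 1.36 for any other. The cause of these added calls was not tested. With a pseudocount of 8, the native FLAG over WT median was 0.18, no member was called in crosslinked over native in FLAG (0 higher) and 0 were called lower in all libraries. With a mean of at least 10, which leaves few members, 0 were called higher in FLAG and 0 lower in all libraries, and the crosslinked over native medians were 1.70 in WT, 0.32 in FLAG and 1.01 in all libraries. The 1 fit of 4 groups called 0 higher in FLAG. The replicate block called 1 lower in WT, against 0.893% of all genes, and 4 higher and 3 lower in FLAG, against 2.73%. The replicate block of FLAG with WT called 0 members in any comparison, and the crossed replicate block of the crosslinked libraries also called 0.

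Where leaving out a crosslinked library left 1 in an arm, it was assumed to vary like the other arm. Leaving out each library gave, in FLAG over WT, 0 to 4 members higher, 0 to 3 lower and a median of 0.65 to 1.12 in native libraries, 0 to 1 higher, 0 lower and -0.09 to 0.20 in crosslinked libraries, and 0 to 3 higher, 0 lower and 0.21 to 0.66 in all libraries. All genes called ranged over 0% to 19.9%, 0% to 0.0252% and 0.0818% to 4.42%. The native counts came without FLAG replicate 2 (4 higher, 3 lower, against 19.9% of all genes) and WT replicate 2 (2 higher, against 0.346%), the others without WT crosslinked replicate 2 (against 0.0252% and 2.52%). In crosslinked over native it gave 0 to 1 higher, 0 lower and -0.50 to -0.05 in WT, 0 to 4 higher, 0 to 3 lower and -0.19 to 0.037 in FLAG, and 1 to 2 higher, 0 to 3 lower and -0.27 to -0.05 in all libraries. All genes called ranged over 0.0126% to 0.176%, 0% to 6.09% and 1.48% to 6.6%. The counts in FLAG came without FLAG native replicate 2 (against 6.09%), and the 3 lower in all libraries without WT native replicate 3 (against 3.94%).

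Directions turned as follows, for changes that were not called. In FLAG over WT, array weights gave -0.15 for Rny3, -0.17 for Vaultrc5, 0.29 for Gm27804 and 0.18 for Gm22320, and a pseudocount of 8 gave 0.007 for Rny1. In crosslinked over native, array weights gave 0.15 for Rny3, 0.21 for Rny1, -0.36 for Gm27927, -0.15 for Gm27435, -0.68 for Gm26037 and -0.087 for Gm27804, a pseudocount of 8 gave -0.004 for Gm27610 and -0.05 for Gm26037, a pseudocount of 1 gave -0.062 and the replicate block -0.23 for Gm26037. Leaving out libraries gave, in FLAG over WT, -0.12 to 0.72 for Rny3, -0.16 to 0.93 for Vaultrc5, -0.71 to 0.20 for Rny1, -0.006 to 0.49 for Gm27694 and -0.59 to 0.044 for Gm22320, and in crosslinked over native -0.81 to 0.005 for Rny3, -0.27 to 0.20 for Mir1897, -0.12 to 3.96 for Gm27927, -0.004 to 3.24 for Gm27733, -0.35 to 1.83 for Gm27435, -0.31 to 1.40 for Gm27610 and -0.29 to 0.54 for Gm26037. Depth is unknown, so the counting error of members near the lowest values cannot be given.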
